A study of Mus musculus with 6 samples.

Results

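The cation-chloride cotransporters, the kinases that regulate them and uromodulin were described here in cells labelled as collecting duct cells of newborn mice that had or lacked Bdkrb2, the bradykinin B2 receptor gene. The members were all array probes of 9 genes: the cotransporter genes Slc12a1, Slc12a2, Slc12a3 and Slc12a7, the uromodulin gene Umod, and the kinase genes Wnk1, Wnk4, Stk39 and Oxsr1. A probe was a member where its transcript accession mapped to one of these symbols. This gave 11 probes of 55681 on the array, and 9 of the 20887 genes that had a named probe. Wnk1 and Oxsr1 had 2 probes each and the other genes 1. All 11 probes were well above background in the sample channel on all 6 arrays, and none of their spots was saturated.

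The cotransporters of this family carry chloride together with sodium, potassium or both across the cell membrane. The sodium-potassium-chloride cotransporter NKCC2 (Slc12a1) is the target of loop diuretics and sits in the thick ascending limb of the loop of Henle, where uromodulin, the most abundant protein of normal urine, is also made. The sodium-chloride cotransporter NCC (Slc12a3) is the thiazide target of the distal convoluted tubule. NKCC1 (Slc12a2) is the widely expressed, secretory relative of NKCC2, and KCC4 (Slc12a7) moves potassium and chloride out of cells. WNK kinases activate the kinases SPAK (Stk39) and OSR1 (Oxsr1), which phosphorylate and activate NKCC2, NCC and NKCC1. Mutations of WNK1 and WNK4 cause familial hyperkalaemic hypertension.

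There were 3 knockout (KO) and 3 wild-type (WT) samples, each from C57BL/6 pups at postnatal day 1. KO pups were Hoxb7cre+ and Bdkrb2f/f with R26RtdTomato, and WT pups were Hoxb7cre+ and Bdkrb2+/+ with R26RtdTomato, so both groups carried the Cre. The Hoxb7 promoter drives Cre in cells that descend from the ureteric bud, and the cells were sorted by flow cytometry for GFP and dsRED. Food with 5% sodium was recorded for the samples of both groups, and an unsalted group is not analysed here. The series text calls the replicates biological, the number of animals in a sample was not given in the sources used here, and the parents described carried only floxed alleles, so litter and genotype cannot be told apart. Each array held the sample RNA in Cy5 and the RNA of WT replicate 1 in Cy3 as a common reference, and the array of WT replicate 1 therefore compared this RNA with itself. The samples were not stated to come from separate litters, so p-values measure the spread between these samples. Values are log2 ratios of sample over reference after loess normalisation within each array, and differences are KO minus WT with the moderated standard error of limma and n = 3 arrays per group. A probe rose or fell where its p, adjusted over the 29808 probes tested, was under 0.05.

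Of the 11 member probes, 8 fell in KO (72.7%), 1 rose (9.09%) and 2 did not pass the test. The count that fell was 5 without WT replicate 1, 6 without WT replicate 2 and 5 without WT replicate 3. Among all probes tested, 14.2% fell and 11.2% rose. The median difference was -1.06 over the member probes and -0.0035 over all probes tested. The 3 KO values lay apart from the 3 WT values for the 8 probes that fell and the 1 that rose. Among all probes tested, 23.6% lay apart with KO lower and 21.6% with KO higher, 45.2% in all. The members were chosen with results of these data known, so these counts describe the list and were not tested. The genotype labels could not be checked on the arrays, because the 1 probe of Bdkrb2 was well above background on 0 of 6 arrays.

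**Figure D1:**
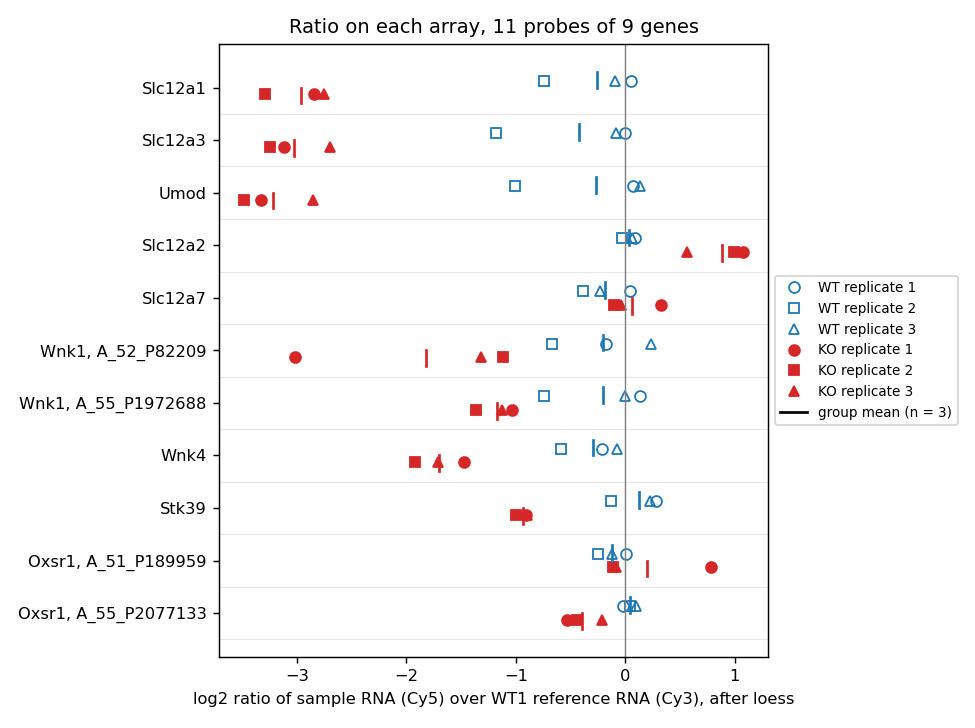
Log2 ratio of sample RNA over the WT replicate 1 reference (x axis) for the 11 probes (y axis), with WT arrays as open blue and KO arrays as filled red symbols and vertical bars at the group means of 3 arrays. The KO values of Slc12a1, Slc12a3 and Umod lie between -3.48 and -2.70, below all WT values, while those of Slc12a2 lie between 0.57 and 1.08, above them.

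The 3 genes of the thick ascending limb and distal convoluted tubule fell furthest. The uromodulin probe A_52_P312806 had ratios of 0.07, -1.005 and 0.14 on WT replicates 1 to 3 and of -3.33, -3.48 and -2.85 on KO replicates 1 to 3. All 3 KO values lay below all WT values, and WT replicate 2 was the lowest of the WT arrays. The difference was -2.96 ± 0.31 (SE, n = 3 per group, adjusted p = 0.000648), a 7.76-fold lower level, and it was the 10th lowest of the 29808 probes tested.

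Slc12a1 (probe A_55_P2373423) had ratios of 0.05, -0.74 and -0.09 in WT and -2.84, -3.30 and -2.75 in KO. The groups were again apart, and WT replicate 2 was again the lowest WT array. The difference was -2.70 ± 0.23 (adjusted p = 0.000409), a 6.52-fold lower level. Slc12a3 (probe A_51_P445985) had ratios of 0.0011, -1.18 and -0.09 in WT and -3.12, -3.25 and -2.70 in KO. Its difference was -2.60 ± 0.31 (adjusted p = 0.00105), a 6.07-fold lower level. These 2 probes ranked 23rd and 30th from the lowest difference of all probes tested. Across the 17 alternatives tried, the differences ranged from -3.33 to -2.59 for Umod, from -3.02 to -2.45 for Slc12a1 and from -3.02 to -2.37 for Slc12a3, and each passed the test every time. In RNA from bulk sorted cells, fewer cells of a type and less RNA per cell cannot be told apart.

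Within an array, Slc12a3 and Umod each differed little from Slc12a1 in both groups. The ratio of Slc12a3 minus that of Slc12a1 was -0.05, -0.44 and 0.0046 in WT and -0.28, 0.05 and 0.05 in KO, so the groups overlapped and their means differed by 0.10. The ratio of Umod minus that of Slc12a1 was 0.02, -0.27 and 0.23 in WT and -0.49, -0.19 and -0.10 in KO, and the means differed by -0.25. Both differences of means were of the size of the spread within a group, whose SDs were 0.19 to 0.25. Umod and Slc12a3 did not keep their order. The ratio of Umod lay above that of Slc12a3 on every WT array and below it on every KO array, which was not tested. These within-array values do not depend on how an array is scaled as a whole, but they can depend on loess, which acts by signal level. Without loess and with each array's median set to 0, the KO minus WT differences were -2.59 for Umod and -2.45 for Slc12a1. After loess they were -2.96 and -2.70.

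The windows before the RefSeq starts of these 3 genes are shown because these genes fell furthest, Slc12a1 and Umod of the thick ascending limb and Slc12a3 of the distal convoluted tubule. Each holds the 250 bases upstream of the start, 5′ to 3′ on the gene's strand, from RefSeq on GRCm38.p6. The Slc12a1 window is at chr2:125152350-125152599 (plus strand), the Slc12a3 window at chr8:94328958-94329207 (plus strand) and the Umod window at chr7:119479263-119479512 (minus strand). Capitals mark TATAAA, the TATA box, in Slc12a3. The other windows have no capitals.
Slc12a1: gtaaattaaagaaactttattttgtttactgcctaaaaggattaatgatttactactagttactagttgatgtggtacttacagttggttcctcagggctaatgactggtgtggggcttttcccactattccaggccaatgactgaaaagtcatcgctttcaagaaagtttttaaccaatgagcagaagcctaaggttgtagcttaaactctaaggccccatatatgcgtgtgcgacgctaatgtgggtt
Slc12a3: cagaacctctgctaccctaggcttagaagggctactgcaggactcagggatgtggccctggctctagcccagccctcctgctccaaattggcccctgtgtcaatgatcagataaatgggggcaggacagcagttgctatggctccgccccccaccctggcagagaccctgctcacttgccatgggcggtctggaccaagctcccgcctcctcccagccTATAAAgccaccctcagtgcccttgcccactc
Umod: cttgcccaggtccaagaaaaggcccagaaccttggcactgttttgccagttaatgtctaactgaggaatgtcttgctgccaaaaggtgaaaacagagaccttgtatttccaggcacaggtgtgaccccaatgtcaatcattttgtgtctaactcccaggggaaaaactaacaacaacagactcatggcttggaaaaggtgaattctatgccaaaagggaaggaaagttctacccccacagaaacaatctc

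TATAAA was searched on both strands. It was found in 12.4% of 32851 promoter windows of the same length and among the members only in Slc12a3, 32 bases before the start. This match describes letters and does not show that a factor binds. The windows of 8 member genes were read, and that of Slc12a2 was not used here. CG dinucleotides numbered 4 in the window of Slc12a1, 3 in that of Slc12a3 and 0 in that of Umod, below the median of 6 over all windows. The other windows read had 15 and 21 for the 2 starts of Slc12a7, 26 for Wnk1, 17 for Wnk4, 43 for Stk39 and 21 for Oxsr1. Among the 8 member genes read, the 3 with the largest decreases thus had the windows poorest in CG, which is a description over few genes.

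The other cotransporters did not fall. Slc12a2, the NKCC1 gene (probe A_55_P2099448), was the single member that rose. It had ratios of 0.09, -0.03 and 0.06 in WT and of 1.08, 0.99 and 0.57 in KO. The WT arrays were close together, KO replicate 3 was the lowest of KO, and the groups did not overlap. The difference was 0.84 ± 0.15 (adjusted p = 0.00503), a 1.79-fold higher level. Fitted with slide row as a block, so that only WT replicate 1 is set against KO, the difference was 0.79 and did not pass (adjusted p = 0.0889). Over all 17 alternatives it ranged from 0.74 to 1.17. The ratio of Slc12a2 minus that of Slc12a1 within an array, a measure of the unequal change of the 2 NKCC genes, was 0.04, 0.70 and 0.15 in WT and 3.92, 4.29 and 3.32 in KO. Its mean went from 0.30 ± 0.36 to 3.84 ± 0.49 (SD, n = 3), a shift of 3.55 on the log2 scale. This pair was chosen after its values were seen, and the shift was not tested.

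Slc12a7, the KCC4 gene (probe A_51_P421734), had ratios of 0.04, -0.38 and -0.23 in WT and 0.32, -0.10 and -0.04 in KO. The groups overlapped, and the difference of 0.25 ± 0.16 (adjusted p = 0.288) did not pass. Its 95% confidence interval was -0.12 to 0.61, so a change of the size of that of Slc12a1 lies outside it, while a rise of up to 0.61 does not. Further family members were given by a list of 4 genes, Slc12a4, Slc12a5, Slc12a8 and Slc12a9. All 4 were tested, 0 rose and 0 fell in the limma fit, and their median difference was -0.0081. Of the 4, 1 had an unadjusted p under 0.05, as had 11410 of all 29808 probes tested. That gene was Slc12a5, the KCC2 gene, at -0.40 ± 0.13 (adjusted p = 0.0585), which passed in 3 alternatives. Slc12a8 gave 0.22 ± 0.13 with 1 of 3 WT arrays well above background. Its other probe had the opposite sign (-0.03) and did not pass either. Slc12a4 gave 0.03 ± 0.13 and Slc12a9 -0.04 ± 0.12.

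Of the WNK kinases, Wnk4 (probe A_51_P486217) had ratios of -0.21, -0.59 and -0.07 in WT and -1.47, -1.92 and -1.71 in KO. The groups lay apart. The difference was -1.41 ± 0.17 (adjusted p = 0.0011), a 2.66-fold lower level, and it passed in all 17 alternatives. Slc12a3 fell further than Wnk4, the kinase that regulates it. The ratio of Slc12a3 minus that of Wnk4 was 0.21, -0.59 and -0.02 in WT and -1.65, -1.32 and -0.99 in KO, a shift of -1.19 that was not tested.

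The 2 probes of Wnk1 had the same sign and differed in size and spread. Wnk1 is known to have a long form with the kinase domain and a short kidney form without it that is made in the distal convoluted tubule, and which forms the 2 probes detect was not given in the sources used here. Probe A_55_P1972688 had ratios of 0.14, -0.75 and 0.0011 in WT and -1.04, -1.36 and -1.12 in KO, with a difference of -0.97 ± 0.23 (adjusted p = 0.0168). Its call was lost with median centring and without KO replicate 2, WT replicate 1 or WT replicate 3 (adjusted p of 0.0585 to 0.133). Probe A_52_P82209 had ratios of -0.18, -0.67 and 0.24 in WT and -3.01, -1.12 and -1.32 in KO. KO replicate 1 stood far below the other KO arrays on this probe and not on the other Wnk1 probe. The difference was -1.61 ± 0.48 (adjusted p = 0.0414), and without KO replicate 1 it was -1.02 ± 0.22 (adjusted p = 0.00599). The call was lost in 9 of 16 alternatives.

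Stk39, the SPAK gene (probe A_55_P1953851), had ratios of 0.28, -0.13 and 0.23 in WT and -0.91, -1.002 and -0.90 in KO. The KO arrays were close together, with an SD of 0.06, and the groups lay apart. The difference was -1.06 ± 0.13 (adjusted p = 0.00115), a 2.09-fold lower level, and it passed in all 17 alternatives, which ranged from -1.21 to -0.80. Stk39 fell less than Wnk4, with a ratio of Stk39 minus Wnk4 of 0.49, 0.46 and 0.30 in WT and 0.57, 0.92 and 0.81 in KO.

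The 2 probes of Oxsr1, the OSR1 gene, share a transcript accession and disagreed in sign. Probe A_55_P2077133 had ratios of -0.02, 0.04 and 0.10 in WT and -0.53, -0.44 and -0.21 in KO. The difference was -0.43 ± 0.11 (adjusted p = 0.0275), a 1.35-fold lower level. It was lost in 6 of 16 alternatives, among them median centring (-0.19, adjusted p = 0.516), and without KO replicate 2 or any of the WT replicates. Probe A_51_P189959 had ratios of 0.0096, -0.25 and -0.12 in WT and 0.79, -0.11 and -0.09 in KO. KO replicate 1 was again the array apart, above the others here. The difference of 0.32 ± 0.23 (adjusted p = 0.362) did not pass, and it was 0.02 without KO replicate 1. No direction is given for Oxsr1 as a gene.

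**Figure D2:**
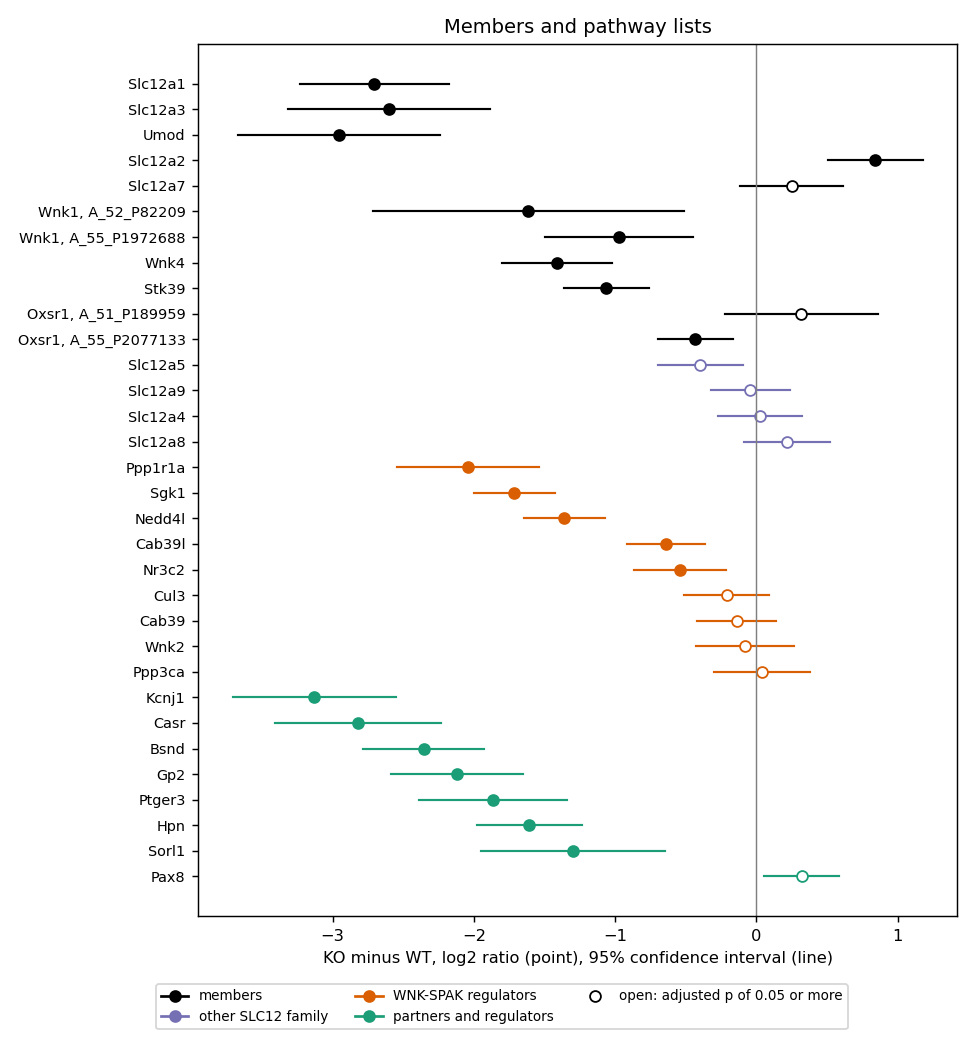
Difference between KO and WT (x axis, log2, points) with its 95% confidence interval (lines) for the 11 member probes and the tested genes of 3 pathway lists (y axis), filled where the adjusted p was under 0.05. The other cotransporter genes lie near 0, between -0.40 and 0.22, while Kcnj1 and Casr lie at -3.13 and -2.82, and the point of Nr3c2, not well above background in KO, is no measure of size.

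Other regulators of the WNK-SPAK cascade were given by a list of 11 genes, of which 9 were tested, 5 fell, 0 rose and 4 did not pass. The count that fell was 3 with median centring and 3 in the fit blocked by slide row. For scale, a fit with 1 probe per named gene called 2950 of 14752 genes lower and 2271 higher. Klhl3 had no probe under its name, and the Wnk3 probe failed the filter on background on all arrays. Sgk1, the aldosterone-induced kinase, fell by 1.71 ± 0.12 on the log2 scale. Nedd4l, a ubiquitin ligase that limits sodium transport, differed by -1.36 ± 0.12, with a second probe at -0.75. Ppp1r1a, an inhibitor of protein phosphatase 1, differed by -2.04 ± 0.22. Cab39l, a relative of the SPAK cofactor Cab39 (MO25), differed by -0.64 ± 0.12 (adjusted p = 0.00688), and its call was lost with median centring (adjusted p = 0.255) and in the fit blocked by slide row (adjusted p = 0.0664). Further Cab39l probes at -0.77 and -1.01 fell too (adjusted p of 0.00421 and 0.00588 in the limma fit). The other gene that fell was Nr3c2, the mineralocorticoid receptor, named after its value was seen (adjusted p = 0.0266). Its probe cleared the background threshold on 3 of 3 WT arrays and 0 of 3 KO arrays, so KO has only a bound, and the fitted difference of -0.54 is no measure of its size. It was -1.91 with Agilent's own ratios, -1.67 with Cy5 alone and -1.21 with an offset of 0. The call was lost in 5 of 16 alternatives, without KO replicate 2, WT replicate 1 or WT replicate 3 among them. Cul3, Cab39, Wnk2 and Ppp3ca did not pass, at -0.21, -0.14, -0.08 and 0.04. A second Cab39 probe, at -0.64 ± 0.34, did not pass either.

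Partners and regulators of NKCC2, NCC and uromodulin were given by a list of 8 genes, all tested, of which 7 fell and 0 rose (median -1.99). Kcnj1, the ROMK channel that returns potassium to the lumen for NKCC2, had ratios of -0.04, -0.81 and 0.15 in WT and -3.49, -3.53 and -3.07 in KO. The groups lay apart, and the difference was -3.13 ± 0.25. Casr, the calcium-sensing receptor that inhibits salt transport in the thick limb, differed by -2.82 ± 0.25. Bsnd, the chloride channel subunit barttin, differed by -2.36 ± 0.19. Gp2, a membrane-anchored relative of uromodulin, differed by -2.12 ± 0.20, with a second probe at -0.84 that also fell (adjusted p of 0.000363 to 0.000509 for the probes of these 4 genes with the highest signal). Among the others, the call of Sorl1, a sorting receptor, at -1.30 ± 0.28 (adjusted p = 0.0126), was lost in the fit blocked by slide row (adjusted p = 0.145) and without WT replicate 3 (adjusted p = 0.063). It was named after its value was seen. The gene that did not pass was Pax8, a kidney lineage transcription factor, at 0.32 ± 0.11 (adjusted p = 0.077), which passed with median centring and without KO replicate 2.

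By the root-mean-square distance between log2 ratios on the 6 arrays, the genes nearest to Slc12a1 among 14751 others were Eprn (0.13), Scn4b (0.15), Kng1 (0.18), Kcnj10 (0.19) and Pgam2 (0.21). Slc12a3 lay at 0.22 and Umod at 0.26, with 6 and 14 genes nearer. The genes nearest to Umod were Tspan1 (0.11), Scn4b (0.12), Kcnj1 (0.15), Kng1 (0.18) and Slc12a3 (0.19). A small distance over 6 arrays says only that the values were alike.

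The processed signals of the scanner program differed between the groups in the reference channel too. For Umod the processed Cy5 signals of WT were 51524, 26875 and 51071 and those of KO 11277, 10921 and 12983, so KO lay below WT on this scale too. The processed Cy3 signals, which came from the same reference RNA every time, were 52092, 57901 and 48689 on the WT arrays and 117623, 123254 and 104233 on the KO arrays. Across the 11 member probes the mean Cy3 processed signal was 1.85 to 2.17 times as high on KO arrays as on WT arrays, while the mean of Cy3 spot minus local background before processing was 1.07 to 1.24 times as high. Processed Cy5 signals placed some members differently. Oxsr1 probe A_55_P2077133, which fell by its ratios, had WT signals of 229, 266 and 243 and KO signals of 296, 334 and 319, so KO lay above WT, 1.29 times as high in the mean. Signals of both Wnk1 probes overlapped between the groups. For Stk39 the WT signals were 1682, 1379 and 1622 and the KO signals 1407, 1442 and 1265, which overlapped, although the ratios did not. For Wnk4 the WT signals were 2778, 2117 and 2645 and the KO signals 2192, 1743 and 1670, which also overlapped. For Slc12a7 the WT signals were 896, 801 and 771 and the KO signals 2271, 1697 and 1783, 2.33 times as high in the mean, although the ratios overlapped. When Cy5 was scaled to each array's 75th percentile, the differences were -1.41 for Wnk4, -1.17 for Stk39 and 0.23 for Slc12a7.

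**Figure D3:**
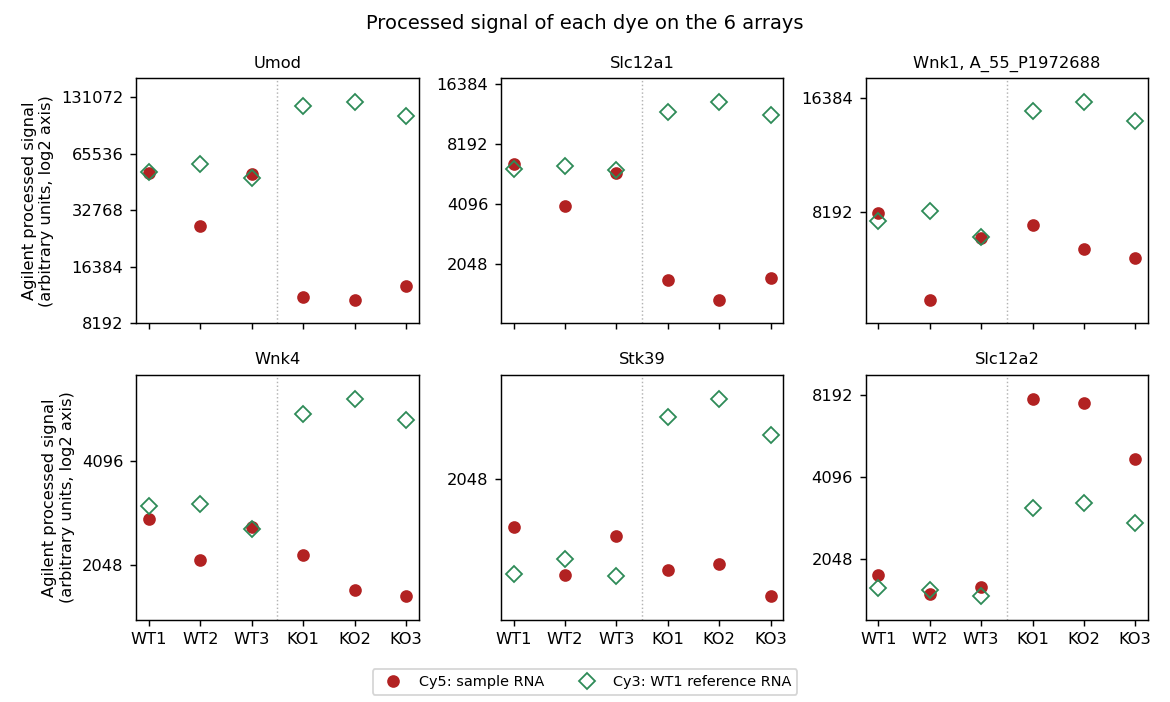
Agilent processed signal (y axes, arbitrary units on log2 axes that differ between panels) of the sample RNA in Cy5 (red circles) and the common reference RNA in Cy3 (green diamonds) on each array (x axes) for 6 member probes. The reference signal is higher on the 3 KO arrays than on the 3 WT arrays in every panel, for Umod 104233 to 123254 against 48689 to 57901, so the distance between the symbols and not the height of the red ones carries the comparison.

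Of the 29808 probes tested, 7550 changed (25.3%), 44.0% of them higher in KO. Without loess and with each array's median set to 0, the median difference of all probes was 0.22 and 77.2% of 6018 called probes were higher. Every member difference was then higher too, which ended the calls of Wnk1 probe A_55_P1972688 and Oxsr1 probe A_55_P2077133 and turned no sign. All 6 arrays lay on 1 slide and were scanned together, with the KO arrays and WT replicate 1 in row 1 and WT replicates 2 and 3 in row 2. With slide row as a block, 6 member probes fell and 0 rose, and 2182 of all probes were called.

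**Figure D4:**
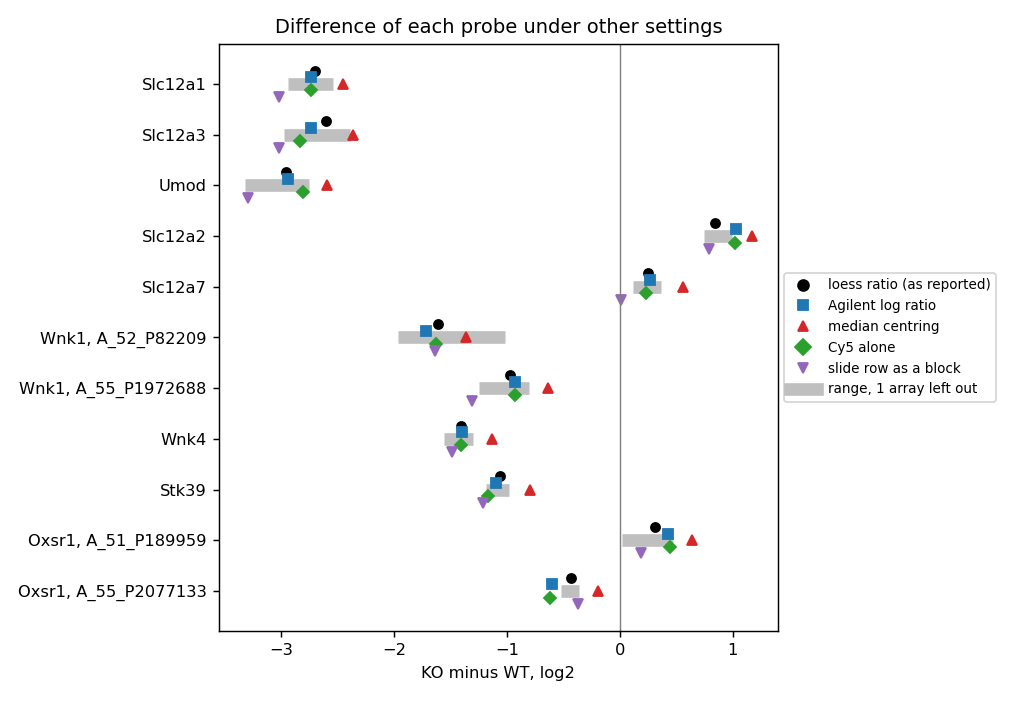
Difference between KO and WT of each member probe (x axis, log2) as reported and under 4 other settings (symbols), with the range over fits that each left out 1 array as grey bars. Slc12a1, Slc12a3 and Umod lie at -2.37 or lower in all of them, and the 2 probes of Oxsr1 lie on opposite sides of 0.

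Marker lists of several cell types also differed between the groups in the same arrays, some lower and some higher in KO. Of the labelled cell type, 8 of 9 principal cell markers were well above background on all WT arrays and Scnn1g on none. So were 9 of 10 other thick ascending limb markers, all 5 distal convoluted tubule markers with a probe, all 7 proximal tubule, 8 stroma, 7 endothelium, 6 immune cell and 5 podocyte markers, and 4 of 5 erythroid markers. Signal above background therefore did not set collecting duct cells apart from other types. Umod, Slc12a1 and Slc12a3 are not known as collecting duct genes. In KO, all 8 tested principal cell, all 7 intercalated cell, all 9 tested thick limb and all 5 distal convoluted tubule markers fell, with median differences of -1.97, -2.43, -2.04 and -1.63. Kcnj1 is in both the principal cell and the thick limb list, and Kcnj1, Bsnd, Ptger3 and Ppp1r1a of the thick limb list are also in the pathway lists. The summed signal of the 10 thick limb markers was 109.8 to 158 times the array's 75th percentile in WT and 26.4 to 33.0 times in KO, and that of the 9 principal cell markers was 124 to 149 and 24.6 to 31.4 times. Macula densa markers had 2 of 3 lower. Of 7 proximal tubule markers 2 fell, with a median of -0.36. For scale, a fit with 1 probe per named gene called 2950 of 14752 genes lower and 2271 higher in KO.

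Of 8 stroma markers 7 rose and 0 fell (median 2.15), and their summed signal was 13.7 to 45.8 times the 75th percentile in WT and 107.4 to 114.5 times in KO. Of 7 nephron progenitor markers 6 rose and 0 fell (median 2.43), with 29.7 to 36.4 times in WT and 67.8 to 130 times in KO. No marker of these 2 lists was at background on every array. Of 6 immune cell markers 5 rose and 1 fell, Ptprc, the general leukocyte marker, at -0.43 ± 0.11 (adjusted p = 0.0214), named after its value was seen. The call of Ptprc was lost with median centring, in the fit blocked by slide row, and without KO replicate 2 or any of the WT replicates. All 7 endothelium markers fell and 1 of 5 podocyte markers rose. All 4 tested erythroid markers fell, with a list median of -1.30 on WT replicate 2, and 5 of 7 ureteric bud lineage markers fell. In the fit blocked by slide row 4 stroma markers rose (median 1.30), 4 nephron progenitor and 0 immune cell markers rose, and 4 endothelium and 3 ureteric bud lineage markers fell, while all 9 thick limb and all 7 intercalated cell markers still fell. In that fit 7 of 8 principal cell and 4 of 5 distal convoluted tubule markers fell. The part of these cell types in the differences of the members was not tested. WT replicate 2 was the lowest WT array for every member probe except Oxsr1 probe A_55_P2077133. Its thick limb list median ratio was -0.61, against 0.0063 and 0.14 on WT replicates 1 and 3, and KO medians were -2.50 to -2.19. Low values on WT replicate 2 were not confined to this list. It was also the lowest WT array for the other tubule and collecting duct cell type, podocyte, stroma and erythroid lists, with -0.94 for proximal tubule. It was not the lowest for the nephron progenitor, immune cell, endothelium and ureteric bud lineage lists.

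**Figure D5:**
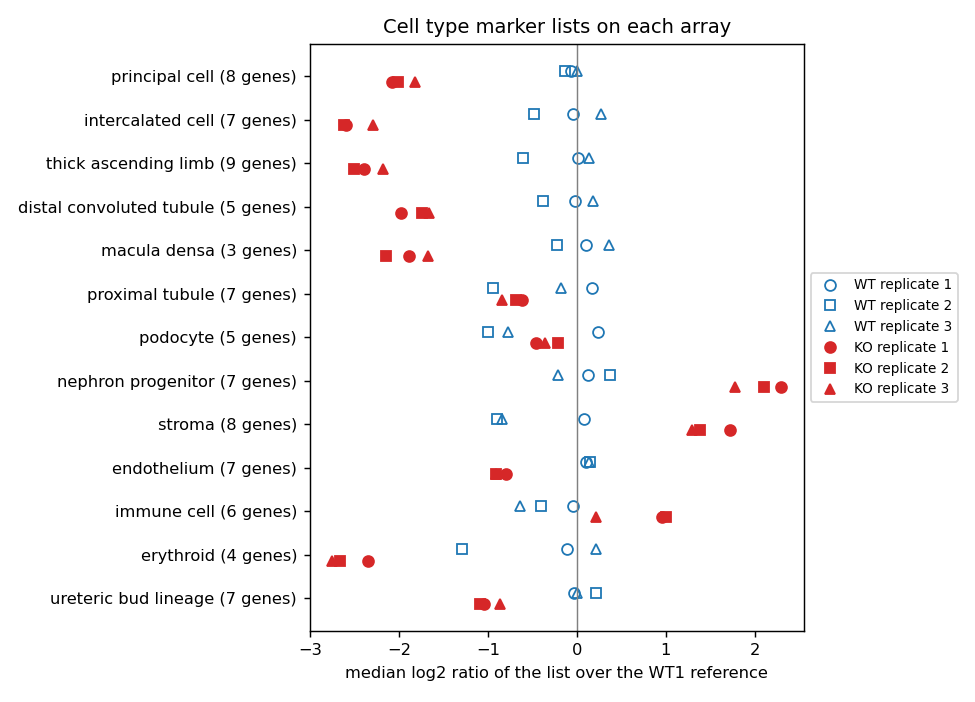
Median log2 ratio over the WT replicate 1 reference (x axis) of the tested genes of 13 cell type marker lists (y axis) on each array, with WT open and KO filled. The thick ascending limb list lies between -2.50 and -2.19 on the KO arrays and between -0.61 and 0.14 on the WT arrays, while the stroma list is higher on all KO arrays.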

How the data were processed

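RNA was measured on 6 Agilent 2-colour mouse arrays. Per the file headers, the deposited files hold median spot and local background intensities and, from Agilent Feature Extraction 10.7.3.1, processed intensities that the program background-subtracted and dye-normalised, with the log10 ratio of processed Cy5 over Cy3. The submitters' processing notes name version 6.1. The log10 values of the deposited series matrix lay within 0.00499 of the scanner values. From the medians, log2 ratios were computed after normexp background correction (offset 50) and loess within each array. Outlier spots (196 to 403 per array) were left out, as were 117 probes with a missing value. Probes well above background in Cy5 on at least 3 of 6 arrays entered a limma fit (version 3.58.1, R 4.3.3, lmFit and eBayes, 2-sided, 4 residual and 3.88 prior degrees of freedom), with Benjamini-Hochberg adjustment over all 29808 probes. The fit was tested on simulated data.

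Accessions were mapped to symbols through a RefSeq table of GRCm38.p6, which named 27509 of 55681 probes. The headers name another build, so no probe positions are given, and promoter windows carry the RefSeq table's own coordinates. For list genes the probe with the highest mean Cy5 signal stood for the gene. Named were all member probes, up to 4 genes per pathway list by unadjusted p, and the 5 genes nearest to Slc12a1 and to Umod. Values were also given for the tested pathway genes that did not pass. Nr3c2, Sorl1 and Ptprc were added after their values were seen, while other genes that fell were only counted. The members and lists were chosen with earlier results of these data known. The number of arrays limits the precision. Alternatives covered normalisation, channel, background correction, filter, probe choice, blocks, array weights and leaving out each array. Some items are not reported here, and the lists are counted without them.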

Additional observations from a re-analysis of the deposited data

How the results depend on the processing

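No member difference changed sign in any of the alternatives run. Those on filter, probe choice and replicate block left each difference as it was, so they could change only a call. The series matrix held nearly the same ratios as Agilent's own. The calls of Slc12a1, Slc12a3, Umod, Wnk4 and Stk39 held in all 17, as the values in the report give, and those of Slc12a7 and Oxsr1 probe A_51_P189959 stayed absent in all 17. Slide row as a block gave 2182 probes called (685 higher, 1497 lower) and 0 member probes higher. Median centring gave 1373 probes called lower, against 4225. Leaving out single arrays gave 3804 to 9500 probes called (1467 to 4338 higher, 2337 to 5162 lower), with the fewest without WT replicate 3, and 4857 without WT replicate 1. Of the member probes 5 to 8 then fell, with 5 without WT replicate 1 or 3. Without the filter 13.3% of 55564 probes were called, and with 1 probe per gene 35.4% of 14752. The alternative with 1 probe per gene gives no value for Wnk1 probe A_52_P82209 and Oxsr1 probe A_55_P2077133.

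Replicate numbers are shared by the groups, but the labels do not say that they mark a litter or day. Deviations from the group means correlated at 0.14, 0.07 and 0.19 between samples of the same number, and each sample correlated best with its own number, a hint from the data only. With the replicate number as a block, 7240 probes were called (3123 higher, 4117 lower), and 8 member probes fell and 1 rose.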
